A study of Mus musculus with 2 samples.

Results

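The genes described here are the ligands and receptors of the tumor necrosis factor (TNF) superfamily, read in 1 single-cell RNA-Seq library of denervated mouse hind limb muscle. They were taken by name: every gene of the library whose symbol starts with Tnfsf or Tnfrsf, together with Tnf, Lta, Ltb, Ltbr, Fas, Fasl, Cd27, Cd40 and Cd70. This gave 41 of 32287 features, namely 16 ligands, 24 receptors and Tnfsf13os, a noncoding antisense RNA that the letters of its symbol brought in.

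The library came from S100GFPtg mice, in which the S100B promoter drives green fluorescent protein (GFP) to mark Schwann cells. The sciatic nerve had been crushed, and tibialis anterior and gastrocnemius muscle was collected 7 days later (7 dpi). These mice lacked the Sod1 deletion used elsewhere in the study, and the series text gives male sex and an age of 2 months for the mice of each genotype. The study's methods on nerve crush give an older range of ages, without naming this library. The number of animals is uncertain, since the series text speaks of 1 injured mouse and the study's methods of pooled males. Viable GFP+ cells were sorted and sequenced as 1 droplet library with 3' tags, so there was no replicate, no uninjured control in the same data, and no test between conditions; the matching GFP- library was not analysed here.

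Cells were assigned to classes by marker genes, none of which is a superfamily member. A barcode joined a class when it held at least 3 of the class's markers, and only barcodes with at least 5000 unique molecular identifiers (UMIs, counted RNA molecules) were used. Of 8701 such barcodes that passed quality filters, 7663 fell in 1 class, and 794 (9.13%) passed the gates of several classes and were left out. The cells had been sorted for a Schwann cell reporter, and 5619 gated barcodes held a UMI of Gfp, but 5457 barcodes (62.7%) were monocyte/macrophage-like and 66 were Schwann-like. The other classes of at least 50 barcodes were mesenchymal-like (1177), tenocyte-like (385), dendritic-like (338) and satellite cell and myoblast-like (157). Endothelial-like (41), smooth muscle and pericyte-like (24) and T and NK-like (13) barcodes were too few for ranking and are given as side values. The leading genes of each class held no marker of another class, but those of the satellite cell and myoblast-like class included muscle fiber genes (Tnnc2, Acta1), and the endothelial-like class was led by Ccl21a, a lymphatic gene. Barcodes passing several gates had been left out, so leading genes do not measure the purity of a class. Tenocyte-like barcodes held mesenchymal-like markers at 19789.5 summed CPM, against 16785 in mesenchymal-like ones, and were set apart by giving their gate precedence.

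TNF superfamily ligands are mostly trimers anchored in the membrane of the cell that makes them, and several, including TNF, can be cut loose by proteases. Their receptors pass the signal to TRAF adaptor proteins and NF-κB, or, where they carry a death domain, to caspases. In injured muscle and nerve the family is known for macrophage-derived TNF, for the ligand TWEAK (Tnfsf12) acting on the receptor Fn14 (Tnfrsf12a), and for ligands that guide lymphocytes and myeloid cells.

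All 41 members had at least 1 UMI over the gated barcodes. Of these, 31 had at least 100 UMIs and 10 had fewer. Levels are UMIs of a gene scaled to 1000000 UMIs of the class (CPM), each with a 95% Poisson interval that covers counting error only. The highest level among the 6 large classes lay in monocyte/macrophage-like barcodes for 16 of the 31, in mesenchymal-like barcodes for 5, in tenocyte-like for 5, in dendritic-like for 3, in satellite cell and myoblast-like for 2 and in Schwann-like for 0. For many of the 31 the lead over the next class was within counting error, as for Tnfsf10 (log2 ratio 0.66, -0.11 to 1.53). In a class sum, fewer cells with the RNA and less RNA per cell cannot be told apart, so shares of barcodes with a UMI are given beside the main levels.

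**Figure D1:**
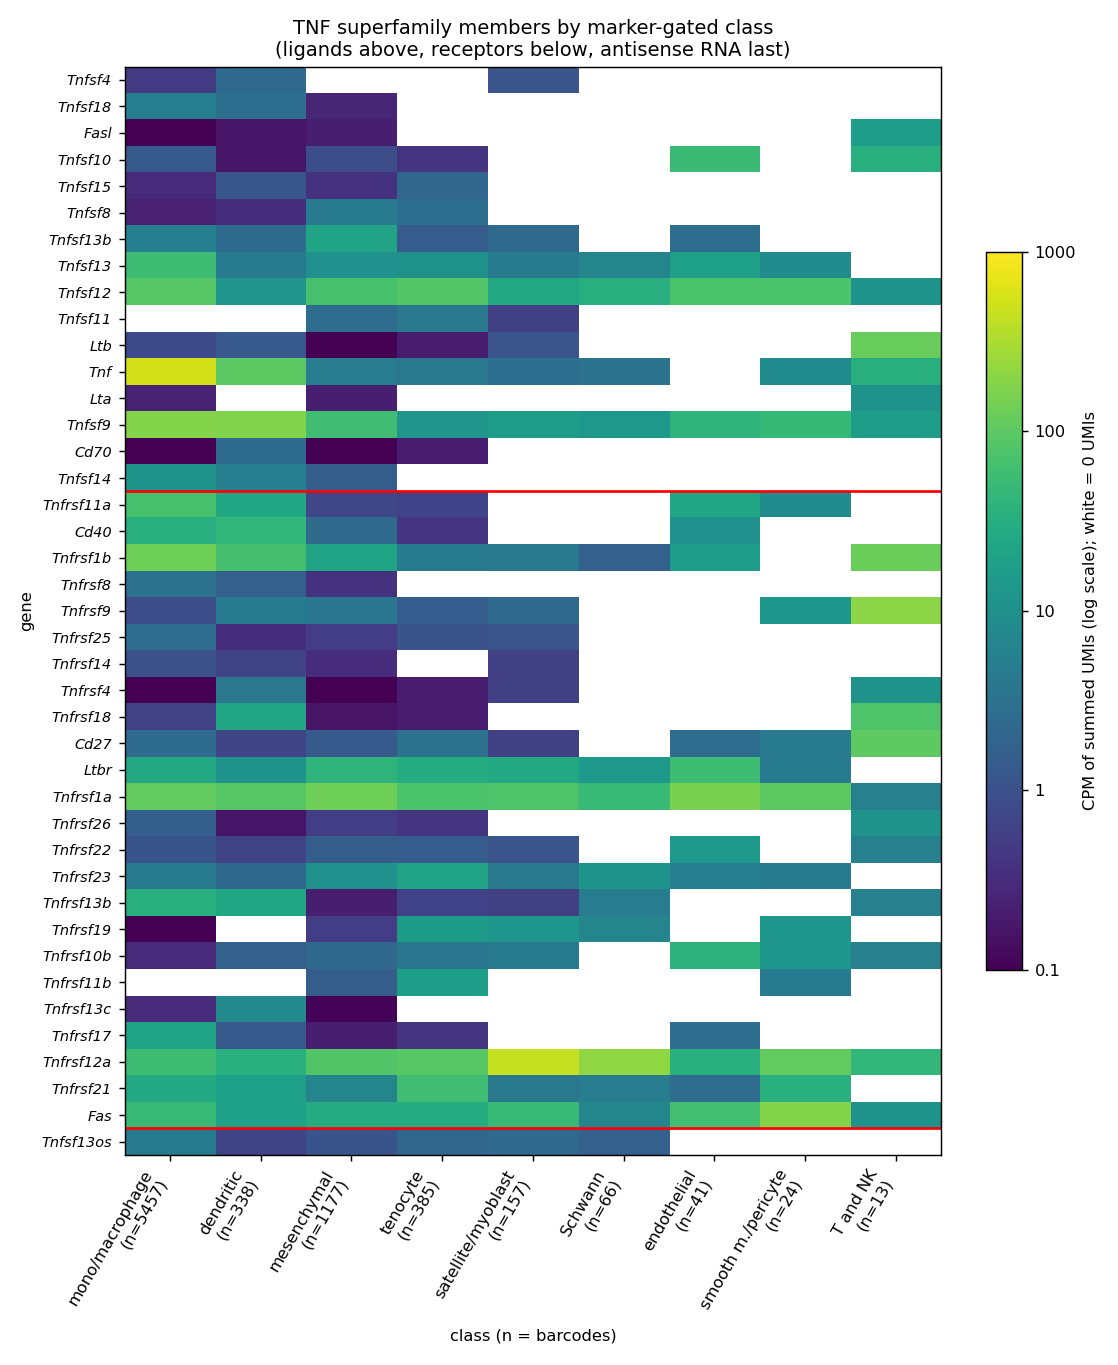
Level of each of the 41 members (rows) in each marker-gated class (columns) as CPM of summed UMIs on a log color scale, with white for 0 UMIs and values below 0.1 CPM drawn at the end of the scale. Tnf is brightest in the monocyte/macrophage-like column (561 CPM) and Tnfrsf12a in the satellite cell and myoblast-like column (449 CPM).

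Tnf lies between its closest relatives in the genome, and the 3 genes gave very different counts. On GRCm38.p6, chromosome 17 carries Ltb at 35194507-35196305, Tnf at 35199367-35202007 and Lta at 35203165-35205578, a stretch of 11072 bases. Over all gated barcodes Tnf gave 38765 UMIs, Ltb 90 and Lta 23. Ltb and Lta encode lymphotoxin subunits: trimers that contain the Ltb product act through Ltbr, and trimers of the Lta product alone bind the TNF receptors. The 250 bases before the RefSeq start of Tnf and of Ltb (RefSeq, GRCm38.p6, each 5′ to 3′ on its own gene's strand) are shown because these neighbors share a locus and differ in level. Capitals mark matches, on either strand, to GGG, then 5 bases of any kind, then CC, the letters of an NF-κB-type site.
Tnf, chr17:35202008-35202257, minus strand: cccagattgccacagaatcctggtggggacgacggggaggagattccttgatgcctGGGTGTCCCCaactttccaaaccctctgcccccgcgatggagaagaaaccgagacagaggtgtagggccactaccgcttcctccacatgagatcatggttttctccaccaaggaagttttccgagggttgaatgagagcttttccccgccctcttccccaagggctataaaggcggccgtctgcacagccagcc
Ltb, chr17:35194257-35194506, plus strand: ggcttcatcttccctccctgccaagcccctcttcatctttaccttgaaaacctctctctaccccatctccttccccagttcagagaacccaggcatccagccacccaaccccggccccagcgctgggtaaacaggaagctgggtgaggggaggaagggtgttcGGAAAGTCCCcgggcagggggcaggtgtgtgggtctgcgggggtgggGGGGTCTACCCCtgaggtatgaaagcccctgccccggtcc
The Tnf window held 1 match, 194 bases before the start, and the Ltb window held 4, some of them overlapping. The letters TATAAA were found in the Tnf window and not in that of Ltb. The window of Lta, which had the fewest UMIs of the 3 genes, held 2 matches and TATAAA, and it is not printed because it overlaps the gene model that gives Lta its position. Of 32851 mouse promoter windows of this length, 45.8% held the first motif and 12.4% held TATAAA on either strand, so a match is common and describes the letters alone.

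Tnf RNA was high in monocyte/macrophage-like barcodes and very low in every stromal class. The level was 561 CPM (555 to 567) in monocyte/macrophage-like barcodes and 98.7 CPM (90.9 to 107) in dendritic-like ones. It was 4.99 CPM in mesenchymal-like, 3.99 CPM in tenocyte-like, 3.34 CPM in Schwann-like (2 UMIs) and 2.86 CPM in satellite cell and myoblast-like barcodes. The intervals of these 4 stromal, muscle and glial classes overlapped one another. With each barcode thinned to 5000 UMIs, 74.0% of monocyte/macrophage-like barcodes held a Tnf UMI, against 3.57% of mesenchymal-like ones. Without thinning, 85.4% and 6.12% held one, and the median barcode had 11289 UMIs in the former class and 15272 in the latter.

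The low Tnf level outside the myeloid classes matched the level of other macrophage RNA there. Summed over 12 myeloid genes that took no part in the gates (Lyz2, C1qa and others), mesenchymal-like barcodes stood at 0.863% of the monocyte/macrophage-like level, and Tnf stood at 0.889%. In tenocyte-like barcodes the 12 genes were at 0.855% and Tnf at 0.711%. In Schwann-like barcodes the values were 0.636% and 0.596%, and in satellite cell and myoblast-like barcodes 0.669% and 0.510%. Tnf in these classes was thus near the share of the 12 genes, and its UMIs there are not read as expression. The source of these UMIs was not tested, and the Schwann-like share had a wide interval (0.0722% to 2.15%). In mesenchymal-like barcodes Tnfrsf11a (1.01%), Tnfrsf17 (1.05%) and Tnfrsf13b (0.629%) were also near it, each as a percent of its own monocyte/macrophage-like level. Dendritic-like barcodes held 19.0% of the 12-gene level, some of those genes being normal in dendritic cells, and 17.6% of the Tnf level.

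Within the monocyte/macrophage-like class Tnf was unevenly spread. Of 5457 barcodes, 795 (14.6%) held none, the median was 4 UMIs, and the highest was 102. The 546 barcodes with the most Tnf held 37.6% of its UMIs. Split by subset markers, Tnf was 681 CPM (666 to 696) in MHC class II macrophage-like, 607 CPM (598 to 615) in Lyve1 Folr2 macrophage-like, 519 CPM (505 to 534) in Gpnmb Fabp5 macrophage-like and 216 CPM (202 to 231) in Ly6c2 Chil3 monocyte-like barcodes. These intervals did not overlap. Tnf was thus lowest in the monocyte-like barcodes, 3.15-fold below the MHC class II subset (log2 ratio 1.65, 1.55 to 1.76). Among dendritic-like subsets it was 187 CPM in Cd209a, 84.0 CPM in Ccr7 mature and 40.5 CPM in Xcr1 Clec9a barcodes.

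The 2 TNF receptors were distributed differently from each other. Tnfrsf1a (TNFR1; chromosome 6, 125349723-125362483) is the death domain receptor found on most cells, and it was measured in all 6 large classes. Mesenchymal-like barcodes were highest, at 129 CPM (124 to 134), followed by monocyte/macrophage-like ones at 109 CPM (107 to 112) and dendritic-like ones at 90.0 CPM. Levels of Tnfrsf1a were 78.4 CPM in satellite cell and myoblast-like, 74.7 CPM in tenocyte-like and 51.8 CPM (35.2 to 73.6) in Schwann-like barcodes. The whole range over the 6 large classes was thus under 3-fold, and satellite cell and myoblast-like and tenocyte-like barcodes did not differ beyond their counting intervals. The endothelial-like value was 158 CPM (120.4 to 204). In T and NK-like barcodes Tnfrsf1a gave 1 UMI, 5.10% of the monocyte/macrophage-like level, where the 12 myeloid genes stood at 8.46%, and this is not read as expression.

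Tnfrsf1b (TNFR2; chromosome 4, 145212368-145246870), which lacks a death domain and signals through TRAF2, followed the leukocytes. It was 129 CPM (127 to 132) in monocyte/macrophage-like, 66.0 CPM in dendritic-like and 128 CPM (81.3 to 192) in the T and NK-like barcodes. Tnfrsf1b stood at 21.4 CPM in mesenchymal-like, 4.62 CPM in tenocyte-like, 1.67 CPM (1 UMI) in Schwann-like and 4.01 CPM in satellite cell and myoblast-like barcodes. The mesenchymal-like level was 16.5% of the monocyte/macrophage-like one, against 0.863% for the 12 myeloid genes, so it was above the share seen for Tnf. Among macrophage subsets Tnfrsf1b had an order unlike that of Tnf, with 214 CPM in Ly6c2 Chil3 monocyte-like, 194 CPM in Gpnmb Fabp5, 140.4 CPM in MHC class II and 86.7 CPM in Lyve1 Folr2 barcodes. In 1699 monocyte/macrophage-like barcodes (31.1%), thinned to equal depth, UMIs of Tnf and of Tnfrsf1a were found together, and in 1669 (30.6%) those of Tnf and Tnfrsf1b.

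**Figure D2:**
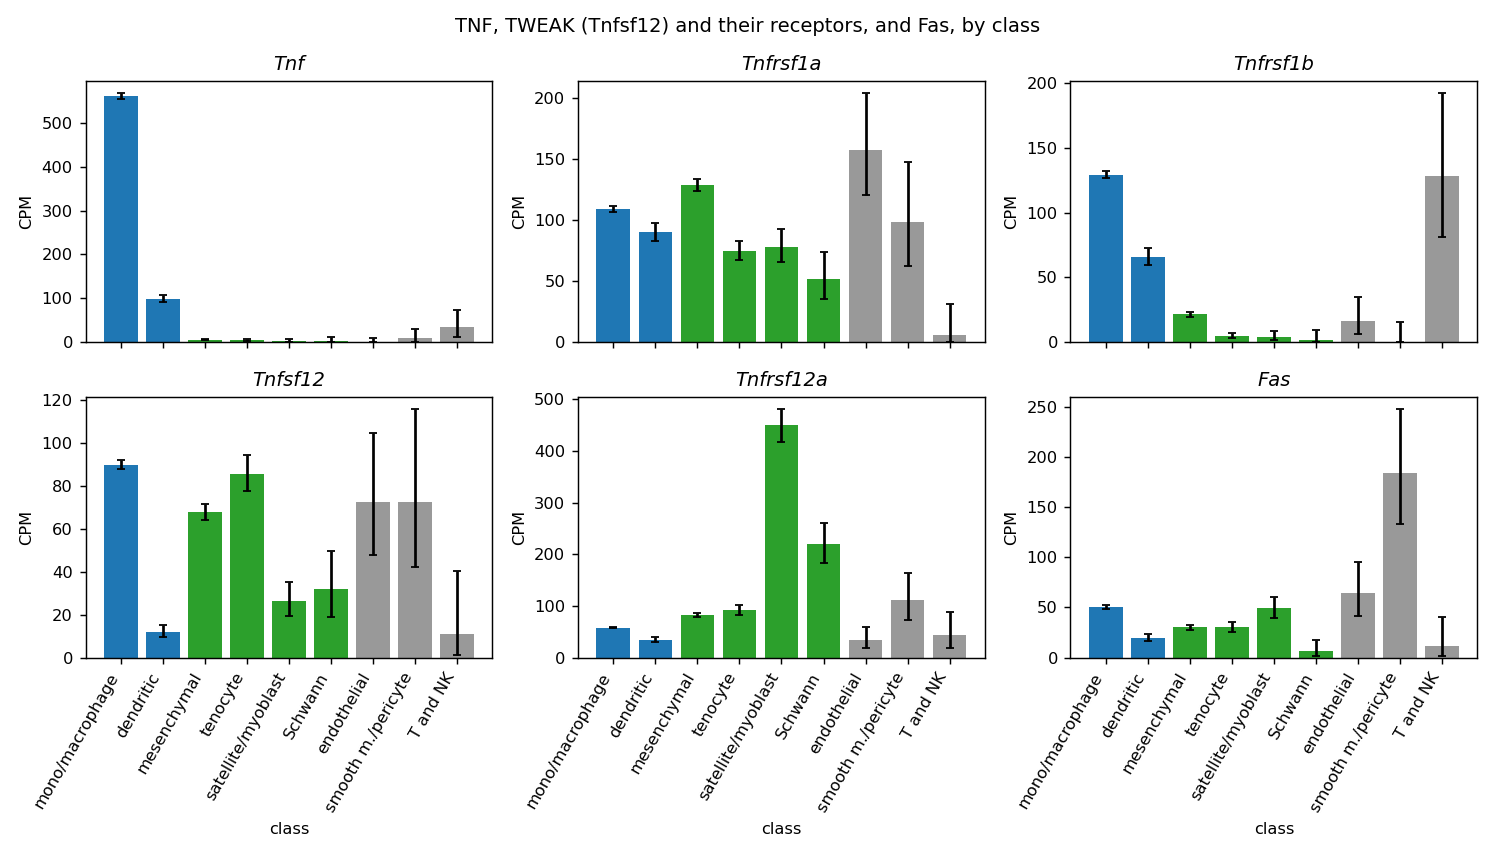
CPM of Tnf, Tnfrsf1a, Tnfrsf1b, Tnfsf12, Tnfrsf12a and Fas by class, as bars from 0 with 95% Poisson intervals (blue: myeloid classes, green: stromal, muscle and glial classes, gray: classes under 50 barcodes). Tnf is high in the monocyte/macrophage-like class and next in the dendritic-like one (98.7 CPM), Tnfrsf1a is found in all 6 large classes, and Tnfrsf12a is highest in satellite cell and myoblast-like barcodes.

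TWEAK and its receptor Fn14 had their high levels in different classes. Tnfrsf12a (Fn14; chromosome 17, 23675445-23677449), a small receptor known to rise in regenerating and denervated tissue, was highest in satellite cell and myoblast-like barcodes, at 449 CPM (418 to 481), and next in Schwann-like ones, at 219 CPM (183 to 259.9). It was 91.5 CPM in tenocyte-like, 82.7 CPM in mesenchymal-like, 58.2 CPM in monocyte/macrophage-like and 34.5 CPM in dendritic-like barcodes. The 2 leading classes differed by a log2 ratio of 1.03 (0.77 to 1.31), which became 0.68 with barcodes of at least 10000 UMIs, where 19 Schwann-like barcodes remained. Tenocyte-like and mesenchymal-like barcodes were not told apart (log2 ratio 0.15, -0.01 to 0.30). After thinning, 79.6% of satellite cell and myoblast-like and 59.1% of Schwann-like barcodes held a Tnfrsf12a UMI, against 22.5% of monocyte/macrophage-like ones. Tnfrsf12a was the highest Schwann-like value relative to macrophages among the members with at least 100 monocyte/macrophage-like UMIs, at 377% of the monocyte/macrophage-like level.

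The ligand Tnfsf12 (chromosome 11, 69686240-69696098) was broad. It stood at 90.0 CPM (87.8 to 92.3) in monocyte/macrophage-like and 85.6 CPM (77.5 to 94.4) in tenocyte-like barcodes, which did not differ beyond counting error. Mesenchymal-like barcodes were at 67.8 CPM, Schwann-like at 31.8 CPM, satellite cell and myoblast-like at 26.3 CPM and dendritic-like at 12.0 CPM. Endothelial-like and smooth muscle and pericyte-like barcodes were in the same range, at 72.4 and 72.7 CPM. Tnfsf12 was therefore lower in the 2 classes that led for Tnfrsf12a than in mesenchymal-like or tenocyte-like barcodes. Both genes were found in 12.1% of thinned satellite cell and myoblast-like barcodes, in 9.43% of mesenchymal-like and in 7.58% of Schwann-like ones. Among macrophage subsets Tnfsf12 was 115 CPM in Gpnmb Fabp5 and 25.1 CPM in Ly6c2 Chil3 monocyte-like barcodes.

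Tnfsf13 (APRIL; chromosome 11, 69682577-69685554) lies next to Tnfsf12, and Tnfsf13os (69682032-69691141) overlaps both on the other strand. Tnfsf13, a growth and survival ligand of the B lineage, was at 56.8 CPM in monocyte/macrophage-like, 10.9 CPM in tenocyte-like and 4.33 CPM in dendritic-like barcodes. Tnfsf13os gave 339 UMIs, with 4.42 CPM in monocyte/macrophage-like, 0.667 CPM in dendritic-like and 2.29 CPM in satellite cell and myoblast-like barcodes. The study's methods state default counting settings, which for such libraries take reads on the sense strand.

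Tnfsf13b (BAFF), the other B cell survival ligand, was highest in mesenchymal-like barcodes. Its level was 21.9 CPM (19.8 to 24.1) there and 5.41 CPM (4.87 to 5.99) in monocyte/macrophage-like barcodes, a log2 ratio of 2.01 (1.81 to 2.22). It was at 0 in Schwann-like barcodes, with a Poisson upper bound of 6.17 CPM. Of 1177 mesenchymal-like barcodes 893 (75.9%) held no Tnfsf13b UMI, and the highest held 9.

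The 3 receptors of APRIL and BAFF, best known from B cells and plasma cells, were measured in myeloid classes here. Tnfrsf13b (TACI) was 34.5 CPM in monocyte/macrophage-like, 25.3 CPM in dendritic-like and 0.217 CPM in mesenchymal-like barcodes. Tnfrsf17 (BCMA; chromosome 16, 11313232-11320074) was 20.6 CPM in monocyte/macrophage-like, 1.33 CPM in dendritic-like and 0 in satellite cell and myoblast-like barcodes. Tnfrsf13c (BAFF receptor) gave only 71 UMIs, 47 of them in dendritic-like barcodes (7.83 CPM, against 0.324 CPM in monocyte/macrophage-like ones). Each of these receptors thus had its own distribution over the myeloid classes.

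Within macrophages Tnfrsf17 followed the Lyve1 Folr2 subset. It was 35.3 CPM (33.3 to 37.4) in Lyve1 Folr2 macrophage-like, 6.02 CPM in MHC class II, 1.10 CPM in Gpnmb Fabp5 and 1.01 CPM in Ly6c2 Chil3 monocyte-like barcodes. The Lyve1 Folr2 level of Tnfrsf17 was 32.0-fold that of the Gpnmb Fabp5 subset (log2 ratio 5.00, 4.12 to 6.06). UMIs came from 800 of 2746 Lyve1 Folr2 barcodes, at most 6 in any 1 barcode. B lineage genes were checked in the same barcodes: in the monocyte/macrophage-like class Pax5 had 1 UMI, Cd79a 39, Ms4a1 104, Cd79b 857 and Ighm 8113. Cd79b, a B cell receptor subunit, was at 17.8 CPM in MHC class II, 13.3 CPM in Lyve1 Folr2, 9.11 CPM in Ly6c2 Chil3 monocyte-like and 7.62 CPM in Gpnmb Fabp5 barcodes. Ighm, an immunoglobulin heavy chain, was at 163 CPM in Lyve1 Folr2, 109 CPM in MHC class II, 58.7 CPM in Ly6c2 Chil3 monocyte-like and 36.1 CPM in Gpnmb Fabp5 barcodes. Both were thus higher in the Lyve1 Folr2 than in the Gpnmb Fabp5 subset, as Tnfrsf17 was, but by less. Ighm and Cd79a (0.807 CPM) were highest in Lyve1 Folr2 barcodes. Unlike Tnfrsf17, Cd79b and Ms4a1 were highest in MHC class II barcodes, with Ms4a1 at 1.92 CPM there and 1.64 CPM in Lyve1 Folr2 ones. The part of B lineage RNA in the Tnfrsf17 result was not tested. No barcode was gated as B-like alone, since all 21 that passed the B-like gate passed the monocyte/macrophage-like gate too. Tnfrsf25 (DR3), a death receptor best known from T cells, was 2.65 CPM in monocyte/macrophage-like, 1.14 CPM in satellite cell and myoblast-like and 0 in Schwann-like barcodes. Among macrophage subsets Tnfrsf25 was also highest in Lyve1 Folr2 barcodes, with 4.39 CPM there, 1.13 CPM in MHC class II and 0 in the other 2 macrophage subsets.

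Several members act in costimulation, through which antigen presenting cells and lymphocytes drive each other. Tnfsf9 (4-1BBL; chromosome 17, 57105287-57107758) was nearly even between the myeloid classes: monocyte/macrophage-like barcodes held 178 CPM (175 to 181) and dendritic-like ones 173 CPM (163 to 184). The log2 ratio of 0.04 (-0.05 to 0.13) separated neither class, and its sign turned (-0.22) when each barcode weighed equally. Mesenchymal-like barcodes held 59.4 CPM of Tnfsf9, 33.4% of the monocyte/macrophage-like level, and tenocyte-like barcodes 12.4 CPM. By subset Tnfsf9 was highest in Cd209a dendritic-like barcodes (392 CPM, 353 to 434). The other dendritic-like subsets were at 244 CPM (Ccr7 mature, 185 to 315) and 91.8 CPM (Xcr1 Clec9a). Tnfsf9 was 276 CPM in Ly6c2 Chil3 monocyte-like, 265 CPM in Gpnmb Fabp5, 261 CPM in MHC class II and 107 CPM in Lyve1 Folr2 barcodes. The Lyve1 Folr2 subset, high for Tnf, was therefore low for Tnfsf9 among macrophages.

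The receptor of that ligand, Tnfrsf9 (4-1BB), was low in the large classes: 4.67 CPM in dendritic-like, 3.74 CPM in mesenchymal-like and 0 in Schwann-like barcodes. Of its 28 dendritic-like UMIs 18 came from 17 Ccr7 mature barcodes, without which the dendritic-like level was 1.74 CPM, below the mesenchymal-like one. In the 13 T and NK-like barcodes it was 201 CPM (141 to 278), with 36 UMIs in 9 barcodes and 18 of them in a single one. Those barcodes also held Ltb at 117 CPM (8 of 21 UMIs in 1 barcode), Cd27 at 100.3 CPM (18 UMIs in 10 barcodes) and Tnfrsf18 at 78.0 CPM (7 of 14 UMIs in 1 barcode), all known from lymphocytes. Fasl, the death ligand of cytotoxic cells, gave 3 UMIs there and 12 in all. This class held 8.46% of the macrophage level of the 12 myeloid genes.

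Cd40 (chromosome 2, 165055614-165071654), the receptor through which helper T cells license antigen presenting cells, stood at 45.0 CPM (39.8 to 50.7) in dendritic-like barcodes, above the 33.9 CPM (32.6 to 35.3) of monocyte/macrophage-like ones. It was at 0 in satellite cell and myoblast-like barcodes (Poisson upper bound 2.11 CPM) and also in Schwann-like ones (upper bound 6.17 CPM). Of 270 dendritic-like UMIs, 90 came from the 17 Ccr7 mature barcodes, where Cd40 reached 378 CPM (304 to 465) against 65.3 CPM in Cd209a and 16.4 CPM in Xcr1 Clec9a barcodes. Without these 17 barcodes the dendritic-like level of Cd40 was 31.2 CPM (26.8 to 36.2) and the order turned (log2 ratio to monocyte/macrophage-like -0.12, -0.35 to 0.10), so the lead rested on them. MHC class II macrophage-like barcodes were at 52.0 CPM. In these 17 barcodes Tnfrsf4 (OX40) was at 75.6 CPM, with 10 of its 18 UMIs in 1 barcode. Tnfrsf9 was at 75.6 CPM, from 8 barcodes. Tnfsf4 (OX40L) was at 42.0 CPM, from 4 barcodes. All 8 UMIs of Cd70, the ligand of Cd27, came from 1 barcode. Mature dendritic-like barcodes thus held high values of several costimulatory genes, but from few cells.

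Tnfrsf18 (GITR; chromosome 4, 156026322-156028894) separated dendritic cells from macrophages more than any other member with at least 100 UMIs. Dendritic-like barcodes held 22.7 CPM (19.0 to 26.8) and monocyte/macrophage-like ones 0.619 CPM (0.446 to 0.837), a log2 ratio of 5.19 (4.69 to 5.73). The receptor was found in 68 of 183 Xcr1 Clec9a barcodes (25.8 CPM), in Cd209a barcodes (17.9 CPM) and in Ccr7 mature barcodes (29.4 CPM), whose intervals overlapped. T and NK markers summed to 2.83 CPM in dendritic-like barcodes. Its ligand Tnfsf18 was 5.25 CPM in monocyte/macrophage-like, 2.83 CPM in dendritic-like and 0 in satellite cell and myoblast-like barcodes, with 7.53 CPM in the Lyve1 Folr2 subset and 0.662 CPM in the Gpnmb Fabp5 subset. In Cd209a dendritic-like barcodes Tnfsf18 was 7.37 CPM (2.96 to 15.2), level with the Lyve1 Folr2 subset, from 7 UMIs of which 6 lay in 1 barcode.

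Tnfsf14 (LIGHT), a ligand of Ltbr and Tnfrsf14, was 11.6 CPM in monocyte/macrophage-like, 5.17 CPM in dendritic-like and 0 in satellite cell and myoblast-like barcodes. Its subset order was 25.8 CPM in Ly6c2 Chil3 monocyte-like, 19.9 CPM in MHC class II, 17.2 CPM in Gpnmb Fabp5 and 4.57 CPM in Lyve1 Folr2 barcodes. Ltbr (chromosome 6, 125306571-125313885), the lymphotoxin β receptor, is a stromal receptor in lymphoid tissue. Ltbr was 39.5 CPM (36.7 to 42.5) in mesenchymal-like, 30.4 CPM in tenocyte-like and lowest in dendritic-like barcodes (interval 8.51 to 14.0 CPM), with 56.3 CPM (34.9 to 86.1) in endothelial-like ones. Tnfrsf14 (HVEM) gave 78 UMIs in all. Tnfrsf8 (CD30) was 3.16 CPM in monocyte/macrophage-like, 1.67 CPM in dendritic-like and 0 in satellite cell and myoblast-like barcodes. Its ligand Tnfsf8 was 4.56 CPM in mesenchymal-like, 2.94 CPM in tenocyte-like and 0 in satellite cell and myoblast-like barcodes, but 31 of its 84 mesenchymal-like UMIs came from 1 barcode.

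**Figure D3:**
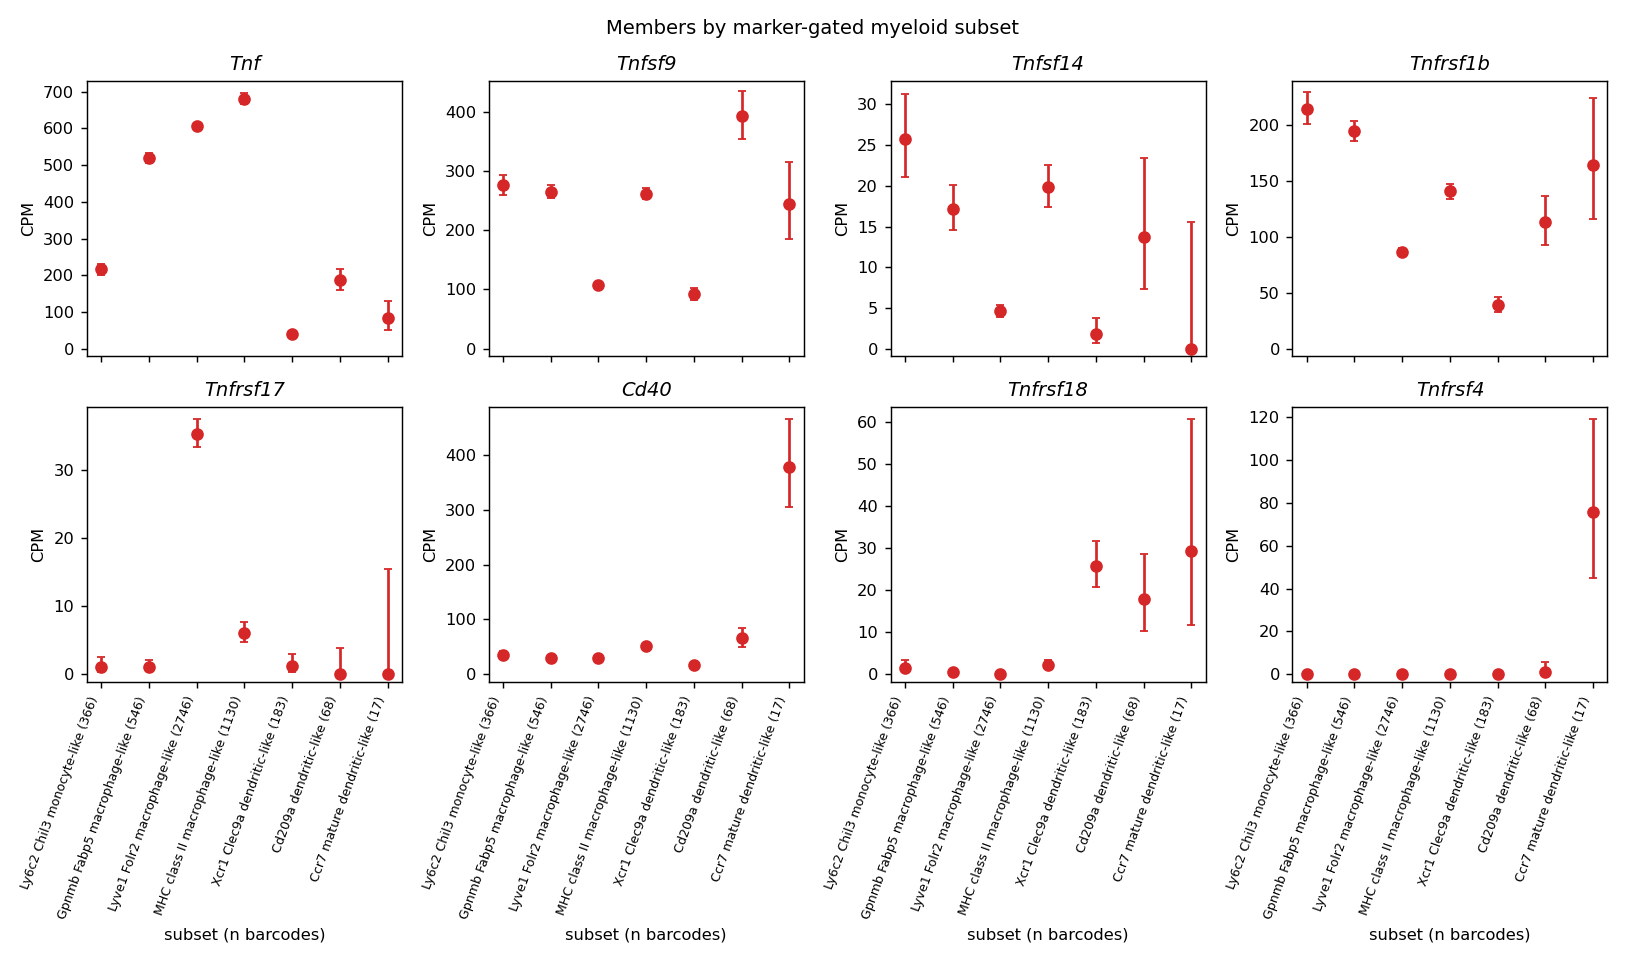
CPM of 8 members in the 7 marker-gated myeloid subsets, as points with 95% Poisson intervals. Tnfrsf17 is high in Lyve1 Folr2 barcodes (35.3 CPM), Tnfsf9, Tnfsf14 and Tnfrsf1b are lower there than in the other macrophage subsets, and Cd40 and Tnfrsf4 are highest in the 17 Ccr7 mature barcodes.

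The RANK system, known for osteoclasts and lymphoid tissue, had its receptor mainly in myeloid classes and its ligand and decoy in stromal ones. The receptor Tnfrsf11a (RANK; chromosome 1, 105780673-105849444) was 69.7 CPM (67.7 to 71.7) in monocyte/macrophage-like and 24.2 CPM in dendritic-like barcodes, and 0 in satellite cell and myoblast-like ones. The 41 endothelial-like barcodes held it at 24.1 CPM, from 9 UMIs in 5 barcodes. The ligand Tnfsf11 (RANKL) gave 69 UMIs, at 3.99 CPM in tenocyte-like barcodes (19 UMIs, 14 of them in 1 barcode) and 2.66 CPM in mesenchymal-like ones (49 UMIs, 13 in 1 barcode). Of the 5457 monocyte/macrophage-like barcodes 0 held a Tnfsf11 UMI (Poisson upper bound 0.0544 CPM). Tnfrsf11b (osteoprotegerin; chromosome 15, 54250619-54278484), the soluble decoy for RANKL, was 17.0 CPM (13.5 to 21.1) in tenocyte-like and 1.52 CPM in mesenchymal-like barcodes, a log2 ratio of 3.48 (2.85 to 4.16), and 0 in the myeloid classes. The tenocyte-like value rested on 19 of 385 barcodes, 1 of which held 28 of the 81 UMIs.

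Other members were highest in tenocyte-like barcodes. Tnfrsf21 (DR6; chromosome 17, 43016555-43089188), a death domain receptor studied in neurons, was 59.0 CPM (52.3 to 66.3) there, 27.6 CPM in monocyte/macrophage-like and 4.01 CPM in satellite cell and myoblast-like barcodes. The tenocyte-like lead over macrophages (log2 ratio 1.10) was 0.60 with barcodes of at least 10000 UMIs. Tnfrsf19 (TROY) was 15.3 CPM (12.0 to 19.3) in tenocyte-like and 12.6 CPM in satellite cell and myoblast-like barcodes (7.89 to 19.1), which overlapped, and it stood at 6.69 CPM in Schwann-like and 0 in dendritic-like ones. Tnfrsf23, a mouse decoy receptor, was 21.6 CPM in tenocyte-like, 11.7 CPM (7 UMIs) in Schwann-like and 2.17 CPM in dendritic-like barcodes. Its neighbors on chromosome 7, Tnfrsf22 and Tnfrsf26, are related copies whose reads may not be fully separable. Tnfrsf22 was 1.52 CPM in mesenchymal-like, 1.47 CPM in tenocyte-like and 0 in Schwann-like barcodes, and Tnfrsf26 was 1.61 CPM in monocyte/macrophage-like, 0.542 CPM in mesenchymal-like and 0 in satellite cell and myoblast-like ones. Cd27 did not separate its leading classes, with 3.15 CPM in tenocyte-like and 2.54 CPM in monocyte/macrophage-like barcodes and 0 in Schwann-like ones.

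The death receptors Fas and Tnfrsf10b completed the set. Fas (chromosome 19, 34290647-34327775) was 50.6 CPM (48.9 to 52.3) in monocyte/macrophage-like and 49.2 CPM in satellite cell and myoblast-like barcodes (39.4 to 60.8), which did not differ beyond counting error. Schwann-like barcodes were lowest for Fas, at 6.69 CPM (1.82 to 17.1). The smooth muscle and pericyte-like value of Fas (184 CPM) rested on 1 barcode that held 28 of the 43 UMIs. In macrophages Fas was highest in Ly6c2 Chil3 monocyte-like barcodes (99.5 CPM), and the other macrophage subsets ranged from 43.4 to 51.6 CPM. Tnfrsf10b (the mouse TRAIL receptor) was 4.58 CPM in satellite cell and myoblast-like, 3.78 CPM in tenocyte-like and 0 in Schwann-like barcodes. Tnfsf10 (TRAIL) itself was 1.37 CPM in monocyte/macrophage-like, 0.868 CPM in mesenchymal-like and 0 in satellite cell and myoblast-like barcodes. Both were higher in the 41 endothelial-like barcodes, with Tnfsf10 at 53.6 CPM (32.8 to 82.8; 20 UMIs in 14 barcodes) and Tnfrsf10b at 37.5 CPM (20.5 to 63.0).

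The 10 members with under 100 UMIs were Tnfrsf14 (78), Tnfrsf13c (71), Tnfsf11 (69), Ltb (90), Tnfsf4 (49), Tnfsf15 (45), Tnfrsf4 (33), Lta (23), Cd70 (18) and Fasl (12). Those not described above were low in every large class. Tnfsf15 (TL1A, the ligand of Tnfrsf25) was 2.10 CPM (1.01 to 3.86) in tenocyte-like barcodes, Tnfrsf14 was 0.988 CPM and Lta 0.251 CPM in monocyte/macrophage-like ones.

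**Figure D4:**
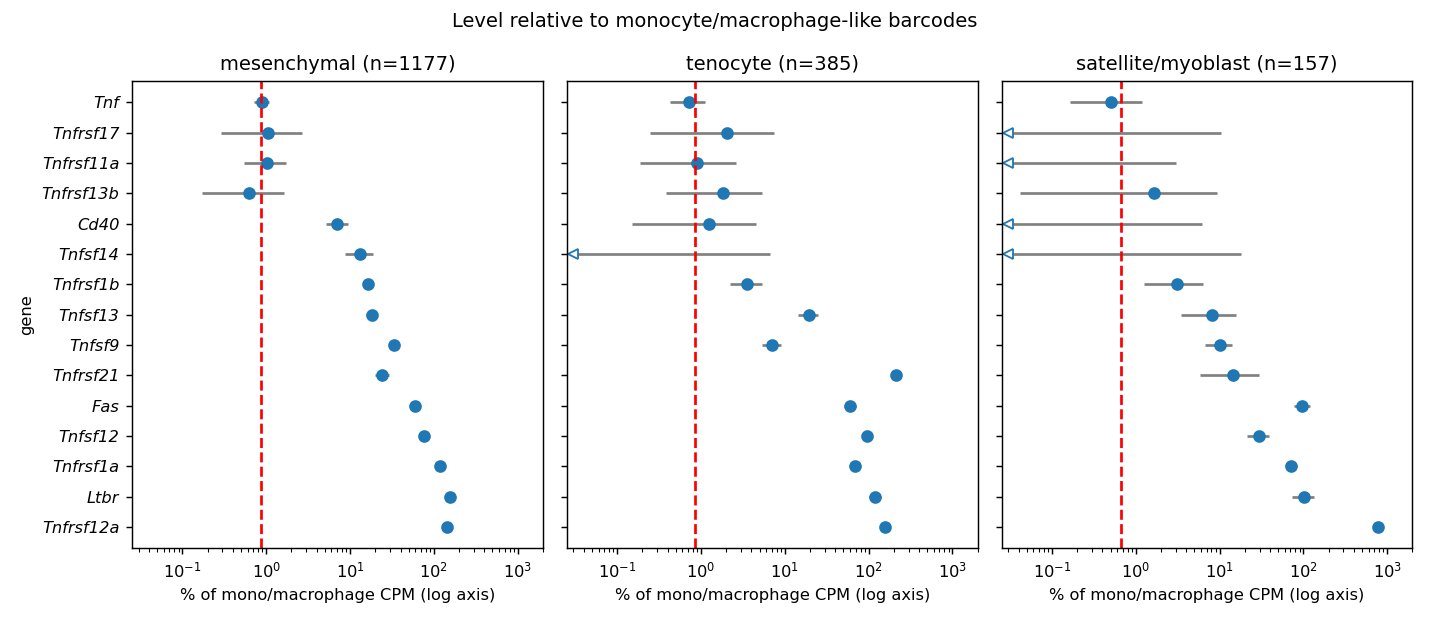
Level of 15 members as a percent of their monocyte/macrophage-like CPM (log axis) in mesenchymal-like, tenocyte-like and satellite cell and myoblast-like barcodes. Points carry 95% Poisson intervals, open triangles at the left edge mark 0 UMIs, and the dashed line marks 12 other myeloid genes. Tnf lies on or near the line in each panel (0.889%, 0.711% and 0.510%), whereas Tnfsf12, Tnfrsf1a, Ltbr and Tnfrsf12a lie far to its right.

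The members were then set against all genes measured in the same barcodes, counting genes at least 2-fold apart among those with at least 30 UMIs over the 2 classes. Of 33 members tested, 19 (57.6%) were at least 2-fold higher in monocyte/macrophage-like than in mesenchymal-like barcodes, against 21.2% of all 16380 genes tested. They included Tnf, Tnfrsf17 and Tnfrsf11a, and the smallest fold among them was that of Tnfrsf26 (2.96-fold). In the other direction 6 (18.2%) were higher in mesenchymal-like barcodes, against 26.3% of all genes: Tnfsf13b, Tnfsf8, Tnfsf11, Tnfrsf9, Tnfrsf23 and Tnfrsf10b. The median log2 ratio of macrophage over mesenchymal levels was 1.58 for members and -0.09 for all genes. A member that passed the minimum through its high class alone had to differ, so these counts are descriptions. The number of members called ranged from 17 to 20 and from 5 to 9 over 11 other settings.

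In Schwann-like barcodes, the cells for which the reporter was made, more of the 41 named members were lower than higher against mesenchymal-like ones. Of 17 members tested, 1 (5.88%), Tnfrsf12a, was at least 2-fold higher in Schwann-like than in mesenchymal-like barcodes, against 21.9% of 13209 genes. In the other direction 7 (41.2%), namely Tnfrsf1b, Ltbr, Tnfrsf1a, Tnfsf13b, Tnfsf12, Tnfsf9 and Fas, were at least 2-fold higher in mesenchymal-like barcodes, against 16.6% of all genes. The median log2 ratio of Schwann-like over mesenchymal-like levels was -0.58 for members and 0.35 for all genes. Here too a member could pass the minimum through mesenchymal-like barcodes alone, as Tnfsf13b did (403 UMIs against 0). These counts are therefore descriptions. With 598064 UMIs in the whole Schwann-like class, 1 UMI is worth 1.67 CPM, so members below a few CPM could not be seen. With mixed barcodes assigned to their leading class the count higher in Schwann-like barcodes was 3.

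Between the myeloid classes, 15 of 32 members (46.9%) were at least 2-fold higher in monocyte/macrophage-like barcodes, against 26.6% of 14817 genes. On the dendritic side stood Tnfrsf18, Tnfrsf13c, Tnfrsf9, Tnfsf4 and Tnfrsf10b, or 5 (15.6%) against 9.48% of all genes. Without the 17 Ccr7 mature barcodes this count was 3, Tnfsf4 and Tnfrsf9 falling below 2-fold. The median log2 ratio of dendritic-like over monocyte/macrophage-like levels was -0.95 for members and -0.29 for all genes. Some members passed the minimum through monocyte/macrophage-like barcodes alone, such as Tnfsf10 (93 UMIs against 1), so these counts are descriptions as well.

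Genes that act below the receptors, and 4 genes for shedding and processing, were read from 5 lists, 41 genes in all. Of these, 19 were at least 2-fold higher in monocyte/macrophage-like than in mesenchymal-like barcodes (46.3%, against 21.2% of all genes) and 1 was lower (2.44%, against 26.3%). Of 40 tested between Schwann-like and mesenchymal-like barcodes, 9 (22.5%) were higher in the former, a share near the 21.9% of all genes, and 9 were lower, against 16.6%. Between dendritic-like and monocyte/macrophage-like barcodes 5 of 41 (12.2%) were higher, near the 9.48% of all genes, and 6 (14.6%) were lower, against 26.6%. Among adaptors and kinases, Traf1, a receptor adaptor induced by NF-κB, was 182 CPM in dendritic-like, 39.1 CPM in monocyte/macrophage-like and 0 in Schwann-like barcodes. Map3k14 (NIK), the kinase of the noncanonical pathway, was 164 CPM in dendritic-like and 12.4 CPM in mesenchymal-like barcodes. Dendritic-like barcodes thus led for both.

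Among cell death regulators, Birc3 (cIAP2) was 258 CPM in monocyte/macrophage-like and 6.69 CPM in Schwann-like barcodes, and Casp8, the initiator caspase of death receptors, was 70.5 CPM in monocyte/macrophage-like and 10.9 CPM in satellite cell and myoblast-like ones. Of the NF-κB subunits, Rel was 978 CPM in dendritic-like, 516 CPM in monocyte/macrophage-like and 25.6 CPM in tenocyte-like barcodes. Nfkb1 had another order, with 1345 CPM in mesenchymal-like, 743 CPM in monocyte/macrophage-like and 125 CPM in Schwann-like barcodes. Tnfaip3 (A20), the deubiquitinase that limits TNF signaling, was 322 CPM in monocyte/macrophage-like, 43.5 CPM in mesenchymal-like and 1.67 CPM (1 UMI) in Schwann-like barcodes. Tnfaip8 was 282 CPM in dendritic-like and 10.9 CPM in satellite cell and myoblast-like barcodes.

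Of the genes for shedding and processing, Rhbdf2 (iRhom2), which brings the TNF-cutting protease ADAM17 to the surface of myeloid cells, was 53.5 CPM in monocyte/macrophage-like and 2.06 CPM in mesenchymal-like barcodes. Mmp14, a membrane metalloproteinase, was 335 CPM in mesenchymal-like and 5.67 CPM in dendritic-like barcodes. Rhbdf2 was thus highest where Tnf was highest, but its next class was Schwann-like (18.4 CPM), where Tnf was low. Mmp14 lay on the stromal side.

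Superfamily genes whose symbols fall outside the naming rule included 1 that was highest in Schwann-like barcodes. Ngfr (p75NTR), the nerve growth factor receptor of repair Schwann cells, was 649 CPM (586 to 717) in Schwann-like, 0.206 CPM in monocyte/macrophage-like and 8.59 CPM in satellite cell and myoblast-like barcodes. Eda (ectodysplasin) was 156 CPM in satellite cell and myoblast-like, 147 CPM in mesenchymal-like and 1.18 CPM in monocyte/macrophage-like barcodes. Its receptor Eda2r was 17.2 CPM in satellite cell and myoblast-like barcodes, and Relt was 16.2 CPM in dendritic-like and 13.9 CPM in monocyte/macrophage-like ones. Edar and Cd40lg gave 4 UMIs each.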

How the data were processed

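Single-cell RNA-Seq (10x 3' chemistry) of GFP+ cells at 7 dpi was used as 1 library (36400 barcodes, 170648616 UMIs, median 2130 per barcode). The authors deposited raw UMI counts per gene and barcode, not normalized, made with Cell Ranger. The matrix header names version 8.0.1 and the submitters' processing notes 7.1.0, and the study's methods name a further version. The notes name mm10, and the methods both GRCm38 and GRCm39 with EGFP. Positions and upstream sequences are from RefSeq on GRCm38.p6 (all 41 members had a place, 31 a promoter).

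A barcode was used if it had at least 5000 UMIs, over 200 genes detected and a mitochondrial share below 10% (8701 barcodes). They were gated by marker genes (at least 3 per class, or 2 for a dendritic subset). Tenocyte-like went before mesenchymal-like and dendritic-like before monocyte/macrophage-like. No doublet caller was run: barcodes passing several gates were left out as mixed, 535 of them passing the mesenchymal-like and monocyte/macrophage-like gates. The GFP- library shares 372 barcodes with this one, 84 among the 8701.

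Counts were summed per class and scaled to CPM. Intervals (95%) were exact Poisson for levels, exact conditional for ratios and exact binomial for shares (thinned to 5000 UMIs, seeded). They cover counting error only. Cells are not replicates, so no p-value was computed. A class at 0 was put at 3 counts for a ratio. A member with at least 100 UMIs is described by its highest, next and lowest class of at least 50 barcodes. Where several classes were at 0, not all of them are named. In each pathway list the 2 genes with the highest ratio between classes are named, among those at 20 CPM or more. The members, marker lists and pathway lists were chosen with earlier results of these data known. The 12 myeloid genes were chosen after the data were seen. Of the B lineage markers, 1 is not reported here. Gating and fold calls were tested on simulated data. Scripts ran on scipy 1.17.1, pandas 2.3.3, numpy 2.4.6 and matplotlib 3.10.9 under Python 3.11.15.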

Additional observations from a re-analysis of the deposited data

How the results depend on the processing

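Counts of members at least 2-fold apart were recomputed under 11 other settings: barcode depth, mitochondrial limit, a stricter gate, mixed barcodes assigned, the deepest barcodes left out, equal weight per barcode, no minimum of UMIs, and, chosen after the data were seen, barcodes with a Gfp UMI only, barcodes of both libraries left out and Ccr7 mature dendritic-like barcodes left out. The count higher in Schwann-like than in mesenchymal-like barcodes was 1, and became 3 with mixed barcodes assigned and 2 with no minimum of UMIs. The count higher in dendritic-like than in monocyte/macrophage-like barcodes was 5, and became 8 with no minimum of UMIs and 3 without the Ccr7 mature barcodes. In these cases more genes entered the count or the barcodes of a class changed. The other 4 counts stayed within 1.5 times. Of 31 ratios between a member's leading classes followed under 10 settings, none of the 12 at 2-fold or more changed sign, while 8 of the others did, 13 times in all. With the stricter gate the ratio of Tnfrsf25 had no value, which left 30 there. Shares of barcodes with a UMI moved with depth: for Tnf in monocyte/macrophage-like barcodes the share was 52.9% at 2000 UMIs and 85.4% without thinning, so shares hold only at the stated depth. With 598064 UMIs in 66 barcodes, the Schwann-like class limits what can be said of low members. No paired analysis was possible because 1 library was used and no test was run.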
